A study of Mus musculus with 2 samples.

Results

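The aminoacyl-tRNA synthetases, the enzymes that join each amino acid to its tRNA, were examined in mouse B cells profiled with and without the microRNA miR-155. The genes were taken from a list of 36 synthetase genes, 20 with unsuffixed names that act in the cytosol and 16 with the suffix 2 that act in mitochondria. Each gene was read by the probe set with the highest mean of both arrays among those naming that gene alone, and a platform symbol with a trailing 1 counted as the same gene. This gave 35 measured genes of 18193 in all. Dars, the aspartate enzyme of the cytosol, was matched by no such probe set and was not analysed here. A gene counts as expressed here when its mean reaches 6.71, the array-wide median without control probe sets, and 34 of the 35 did. Mars2, the mitochondrial methionine enzyme, lay under it.

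The study hybridised total RNA to 2 Affymetrix arrays, 1 for each genotype label, and asks how loss of miR-155 alters the transcripts of cultured and activated B cells. The mice were male, on the background labelled C57 (from Jackson Laboratory), with the genotype entries mir155 KO and mir155 WT. Cells of both groups were exposed to cycloheximide, a blocker of translation elongation, at 100 ug/ml for 8 min before harvest, so no array shows the cells without it. The growth protocol describes progenitors kept in G-CSF and SCF for 6 days, which differs from the cell type entry, and nothing says whether an array held RNA of 1 animal or of several. Both arrays stand alone, so no difference below could be tested against replicate spread, and every value is a single measurement.

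The labels conflict: titles and genotype entries give the assignment used here, and the source names give the reverse for both arrays. The host transcript Mir155hg read 10.88 on the array entered as mir155 KO and 6.63 on the other, which goes against the genotype entries, although whether its probe set lies in the deleted part was not determined. The KO-labelled array and the WT-labelled array are named by genotype entry, differences are KO-labelled minus WT-labelled in log2 units, and every sign turns over if the source names are right. Of all expressed genes 56.9% were higher on the KO-labelled array (median 0.03), and the marker counts that follow stand beside this share. Of 14 measured B cell markers, 14 were expressed and 13 were higher on the KO-labelled array (median 0.15). Among 14 neutrophil and precursor markers that were measured 3 were expressed, Camp, Lcn2 and Prtn3, all slightly lower (median -0.05). Of 8 stem and progenitor markers 3 were expressed, all lower (median -0.27). Macrophage and monocyte markers (9 expressed of 12, 7 lower, median -0.24) and dendritic cell markers (5 of 8, 4 lower, median -0.27) were also mostly lower. Flt3 (-0.27) is in both the stem and the dendritic cell list and is the median of each. Of 8 T cell markers 6 were expressed (4 higher, median 0.14). The part of these cells in the synthetase values was not tested, and fewer cells of a type cannot be told apart from less RNA per cell.

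Each synthetase activates its amino acid with ATP and transfers it to the matching tRNA, and a codon can be read only with the charged tRNA. Activated lymphocytes enlarge and make much protein, and synthetase genes are among the known targets of MYC and of ATF4, the transcription factor that answers to a lack of amino acids. In the cytosol several of the enzymes sit together in the multisynthetase complex. Mitochondria translate their own few messages with enzymes encoded by separate nuclear genes, except that Gars and Kars serve both compartments.

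The microRNA that sets the genotypes apart is shown with its seed (bases 2 to 8) in capitals, from RefSeq on GRCm38.p6 at chr16:84714143-84714165, plus strand.
mmu-miR-155-5p: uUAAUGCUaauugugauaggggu

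Promoter sequence was available for 26 of the 35 measured synthetases, as RefSeq windows on GRCm38.p6 from 250 bases before to 50 after the gene's start. They were searched on both strands for the C/EBP-ATF element TGATGNAAN, through which ATF4 acts, and for the E-box CACGTG, which MYC binds. The stretches that held a match are shown 5′ to 3′ on the gene's strand, with the matched letters in capitals, because they separate the synthetases into groups that are compared further on. The matches did not overlap each other.
Aars, chr8:111033681-111033752, plus strand, E-box then C/EBP-ATF: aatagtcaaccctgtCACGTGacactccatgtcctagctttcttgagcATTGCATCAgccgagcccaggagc
Aars, chr8:111033835-111033873, plus strand, C/EBP-ATF: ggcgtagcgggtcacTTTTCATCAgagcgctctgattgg
Gars, chr6:55037955-55037993, plus strand, C/EBP-ATF: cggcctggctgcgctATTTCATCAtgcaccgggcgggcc
Iars, chr13:49682046-49682081, plus strand, E-box: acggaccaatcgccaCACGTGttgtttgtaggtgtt
Iars, chr13:49682121-49682159, plus strand, C/EBP-ATF: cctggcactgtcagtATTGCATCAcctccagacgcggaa
Tars, chr15:11399619-11399689, minus strand, C/EBP-ATF then E-box: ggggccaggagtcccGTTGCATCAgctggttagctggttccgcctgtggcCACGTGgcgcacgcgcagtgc
Yars, chr4:129189891-129189929, plus strand, C/EBP-ATF: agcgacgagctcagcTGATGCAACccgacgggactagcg
Farsb, chr1:78488916-78488951, minus strand, E-box: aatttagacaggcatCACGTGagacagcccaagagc
Ears2, chr7:122067045-122067080, minus strand, E-box: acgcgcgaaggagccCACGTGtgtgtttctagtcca

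The C/EBP-ATF element was found in 5 of the 26 promoters (19.2%), against 3.95% of all 32851 windows of this length. All 5 belonged to the 8 synthetases with a window among those reported to answer to ATF4, and the other 18 held none. That list was remembered from the literature and holds cytosolic genes only. By compartment, 5 of 12 cytosolic and 0 of 14 mitochondrial promoters held the element. The element began 113 bases before the start in Aars, 31 before it in Gars and 16 before it in Tars. It lay just after the start in Iars (6 bases) and Yars (3 bases), and the other match of Aars lay 8 bases after it. The E-box was found in 5 of 26 (19.2%), against 7.15% of all windows, and 3 of these promoters, Aars, Iars and Tars, held both motifs. The other motif, an interferon element of TTTC, any 2 bases and TTTC, was found in Qars alone, 1 of 26 (3.85%), against 3.44% of all windows. These are matches of letters and say nothing of binding.

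The synthetases differed little between the arrays, and more of them were higher than lower on the KO-labelled array. Of the 34 expressed genes 25 were higher (73.5%) and 9 lower, where 56.9% of all 10717 expressed genes were higher. Their median difference was 0.07, against 0.03 over all expressed genes, whose central 95% ran from -0.39 to 0.37. With quantile normalization the counts came to 22 of 34 (64.7%) against 49.2% of all expressed genes, and with a loess curve of difference on level subtracted to 21 of 34 (61.8%) against 47.0%. As a technical yardstick, the difference was compared between the 2 brightest expressed probe sets of each of 4906 genes, which lay 0.084 apart in the median gene and 0.31 apart at percentile 95. The size of 17 of the 34 differences was below that median disagreement, as it was for 42.8% of all expressed genes, and no expressed synthetase exceeded 0.31.

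Only 1 synthetase, Yars2, was higher by 0.25 or more, where 7.60% of expressed genes were, and 0 of 34 were lower by that much, where 6.40% were. The differences ran from -0.18 for Wars to 0.28 for Yars2, that is from 1.13-fold lower to 1.21-fold higher.

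**Figure D1:**
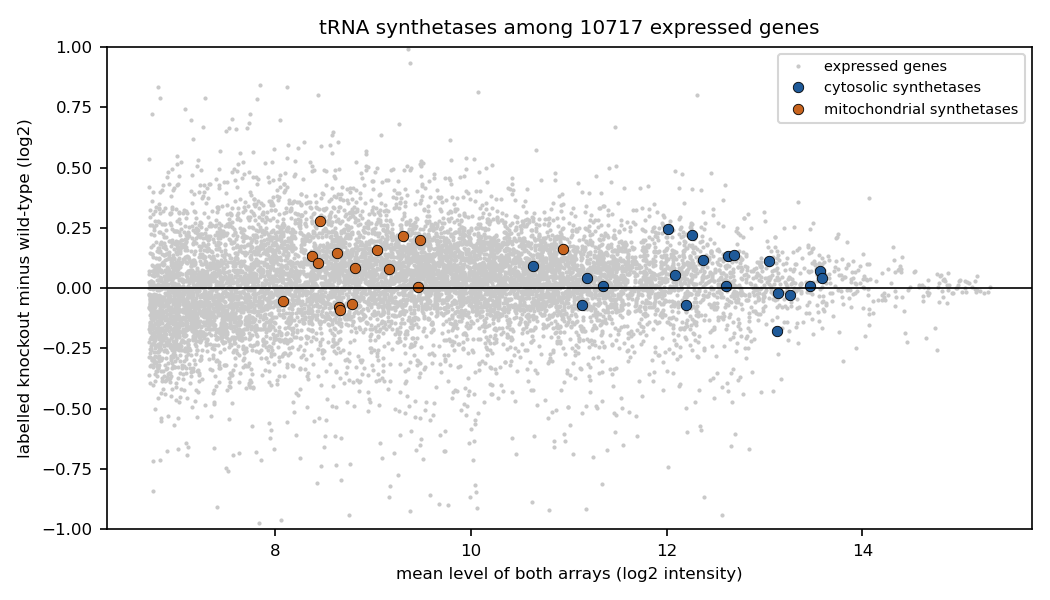
Difference between the arrays (KO-labelled minus WT-labelled, log2) against the mean level of both arrays (log2 intensity) for 10717 expressed genes in grey, with the 19 cytosolic synthetases in blue and the 15 expressed mitochondrial ones in orange; 17 grey genes lie beyond the axis limits of 1 in either direction. The synthetases lie inside the grey cloud, with Yars2 at 0.28 the highest and Wars at -0.18 the lowest.

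In the cytosolic group 14 of 19 genes were higher and 5 lower, with a median of 0.04, where 56.9% of all expressed genes were higher. All 19 had mean levels above 8.84, the 75th percentile. Of the 6306 genes that reached this level 62.7% were higher, with a median of 0.04. Levels lay between 10.59 and 13.61 on both arrays. Levels of different probe sets cannot be set against each other, so only the arrays are compared within a gene. Of the multisynthetase complex 7 of 8 enzymes were measured, 5 higher and 2 lower, with a median of 0.11, and the 12 cytosolic genes outside it had 9 higher and a median of 0.04. Among the enzymes of the complex, Rars, the arginine enzyme, had levels of 12.76 on the KO-labelled array and 12.62 on the WT-labelled array (0.14). Iars, the isoleucine enzyme, stood at 12.69 and 12.56 (0.13). Kars, the lysine enzyme, stood at 12.43 and 12.31 (0.12). These 3 were the highest of the complex.

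Eprs, a single protein that charges both glutamate and proline, had levels of 13.10 and 12.99, a difference of 0.11. Qars, for glutamine, was all but equal at 11.35 and 11.34 (0.01). Lars, the leucine enzyme, which is also known as a leucine sensor of the mTORC1 pathway, was slightly lower on the KO-labelled array, at 13.25 against 13.28 (-0.03). Mars, the methionine enzyme, was also lower, at 12.16 against 12.23 (-0.07).

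Outside the complex the 2 ends of the cytosolic range were Hars and Wars. Hars, the histidine enzyme, had levels of 12.14 on the KO-labelled array and 11.89 on the WT-labelled array, a difference of 0.24 (1.18-fold). Among the 886 expressed genes within 0.5 of its mean level 5.64% had a higher signed difference. Its other probe set gave 10.60 and 10.37 (0.23), so both probe sets were higher by nearly the same amount.

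Wars, the tryptophan enzyme, which is known to be induced by interferon, had levels of 13.04 on the KO-labelled array and 13.22 on the WT-labelled array, a difference of -0.18. All 4 of its probe sets were lower on that array, by 0.16 to 0.21 in size, and 8.46% of the 390 expressed genes within 0.5 of its mean level were lower still. Wars was the only cytosolic synthetase whose lower value exceeded the median probe set disagreement of 0.084. Of the remaining enzymes, Cars, for cysteine, stood at 11.10 and 11.17 (-0.07), and Sars, for serine, at 13.13 and 13.15 (-0.02).

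The phenylalanine enzyme is built from 2 subunits with separate genes. Farsb, its beta subunit, had levels of 12.37 on the KO-labelled array and 12.15 on the WT-labelled array, a difference of 0.22. Farsa, its alpha subunit, had levels of 10.68 and 10.59, a difference of 0.09. The other 3 expressed probe sets of Farsb differed by less, 0.11 to 0.12.

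The other cytosolic enzymes were near 0. Gars, for glycine, stood at 13.60 and 13.53 (0.07), Vars, for valine, at 12.12 and 12.06 (0.05), and Nars, for asparagine, at 13.61 and 13.57 (0.04). Yars, for tyrosine, stood at 11.21 and 11.17 (0.04), Aars, for alanine, at 13.47 and 13.46 (0.01), and Tars, for threonine, at 12.61 on both arrays (0.01). All 6 differences were smaller than the median disagreement of probe sets.

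**Figure D2:**
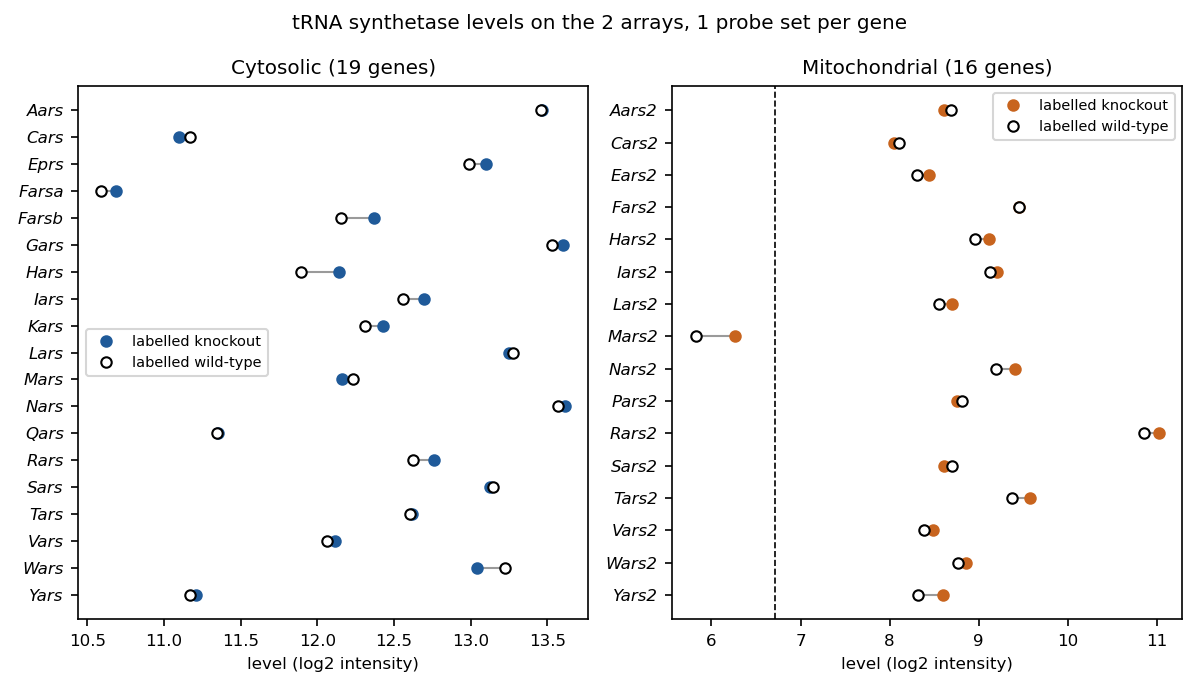
Level (log2 intensity) of each measured synthetase on the KO-labelled array (filled) and on the WT-labelled array (open), cytosolic genes on the left and mitochondrial genes on the right, with a dashed line at 6.71, the level for expression. The points of most genes nearly touch; Hars (12.14 and 11.89) and Farsb (12.37 and 12.15) are spread furthest on the left among those higher on the KO-labelled array, and Wars is spread the other way.

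In the mitochondrial group 11 of 15 expressed genes were higher and 4 lower, with a median of 0.10, where 56.9% of all expressed genes were higher. With quantile normalization 10 of 15 were higher (49.2% of all expressed genes), and with the loess curve also 10 of 15 (47.0%). Levels lay between 8.05 and 11.02. Yars2, the tyrosine enzyme of mitochondria, had levels of 8.60 on the KO-labelled array and 8.32 on the WT-labelled array, a difference of 0.28. Both of its probe sets were higher, by 0.28 and 0.22. Among the 1817 expressed genes within 0.5 of its mean level 9.80% had a higher signed difference.

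Nars2, for asparagine, followed with levels of 9.41 and 9.20 (0.21), and Tars2, for threonine, with 9.57 and 9.38 (0.20). Rars2, for arginine, stood at 11.02 and 10.86 (0.16), and Hars2, for histidine, at 9.12 and 8.96 (0.16). Lars2, for leucine, stood at 8.70 and 8.55 (0.14). These 5 genes exceeded the median probe set disagreement, as did Yars2. Of the 15 expressed mitochondrial genes 6 were below that disagreement in size, beside 42.8% of all expressed genes.

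Ears2, which charges the mitochondrial glutamate tRNA and also loads glutamate on the glutamine tRNA for later conversion, had levels of 8.44 and 8.31 (0.13). Vars2, for valine, stood at 8.49 and 8.38 (0.10), and both also exceeded that disagreement. Wars2, for tryptophan, stood at 8.86 and 8.77 (0.08), and Iars2, for isoleucine, at 9.20 and 9.12 (0.08). Fars2, which is a single-chain phenylalanine enzyme unlike its cytosolic counterpart, was equal on the arrays at 9.46 and 9.45 (0.003).

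The 4 lower genes were Sars2, for serine (8.61 and 8.70, -0.09), Aars2, for alanine (8.61 and 8.69, -0.08), Pars2, for proline (8.75 and 8.82, -0.06), and Cars2, for cysteine (8.05 and 8.10, -0.05). Sars2 alone of these exceeded the median disagreement of 0.084, by little. Mars2 read 6.26 and 5.82, both under the level for expression, so its difference of 0.44 is given as a measured value only and enters none of the counts of expressed genes.

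**Figure D3:**
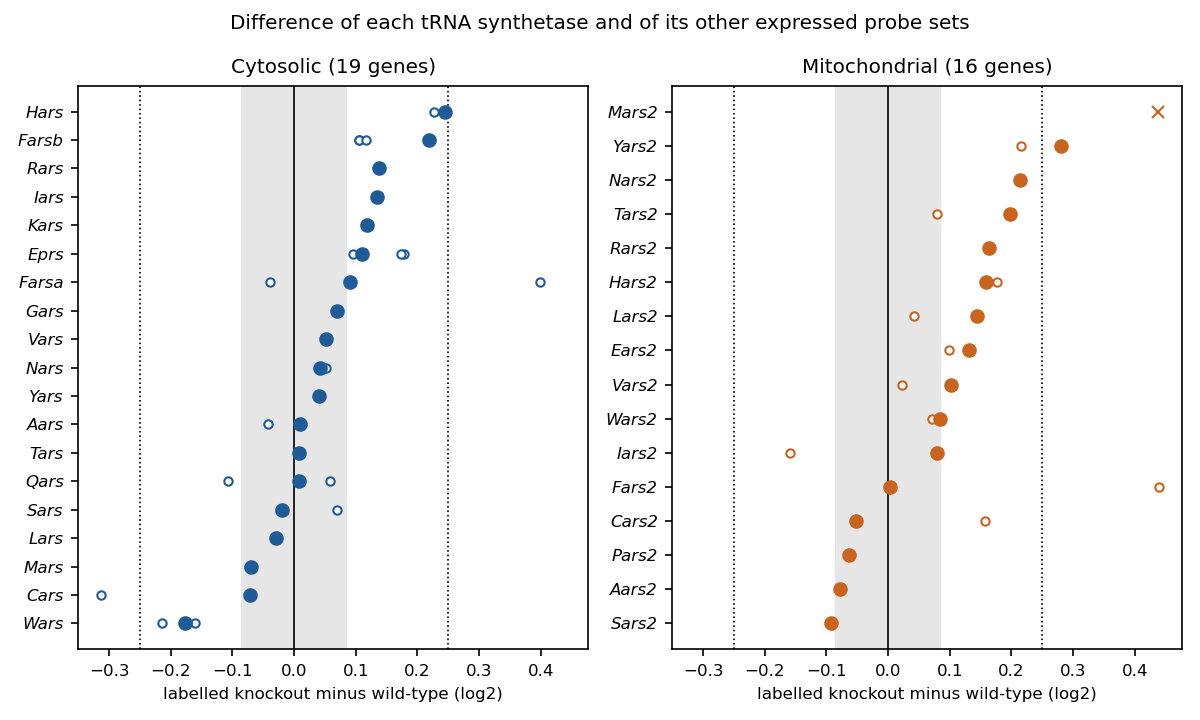
Difference between the arrays (KO-labelled minus WT-labelled, log2) of each synthetase, cytosolic on the left and mitochondrial on the right, with the probe set used as a filled point, its other expressed probe sets as open points and the unexpressed Mars2 as a cross. The grey band spans the median probe set disagreement of 0.084 in either direction and the dotted lines mark 0.25; Yars2 is the only filled point past a dotted line, and all 4 points of Wars lie left of the band.

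Genes read by several probe sets show how far such small values repeat on the same arrays. Of 21 synthetases with more than 1 expressed probe set, 13 had all of them higher, 2 all lower and 6 both ways. Over the whole series the shares were 40.7% all higher and 20.0% all lower, of 4906 genes. The 4 probe sets of Eprs were higher by 0.10 to 0.18 and both probe sets of Iars by 0.13. Both probe sets of Cars were lower, by 0.07 and 0.31.

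For the 6 genes with mixed directions the sign depended on the probe set. Another probe set gave -0.04 for Aars, -0.04 for Farsa, -0.11 for Qars, 0.07 for Sars, 0.16 for Cars2 and -0.16 for Iars2. Farsa also had a probe set at 0.40 and Fars2 one at 0.44, at mean levels of 8.12 and 7.20. An unexpressed probe set of Ears2 gave -0.20.

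The enzymes for 1 amino acid in the cytosol and in mitochondria come from different genes, apart from those for glycine and lysine. For 12 amino acids a single cytosolic gene and its namesake with the suffix 2 were both expressed. Phenylalanine, with 2 cytosolic subunit genes, and glutamate and proline, which share Eprs in the cytosol, were not paired and are described above. Both genes were higher on the KO-labelled array for 7 amino acids, both lower for 2 (cysteine and serine), and opposite for 3 (alanine, leucine and tryptophan). The mitochondrial gene had the higher difference in 8 of 12, with a median gap of 0.04. This median was below the median probe set disagreement of 0.084, which 7 of the 12 gaps exceeded in size. The widest gaps were those of tryptophan (Wars -0.18, Wars2 0.08) and tyrosine (Yars 0.04, Yars2 0.28), and histidine was the amino acid with both genes above 0.15 (Hars 0.24, Hars2 0.16). Some pair directions depended on the processing. Aars turned below 0 with averaged probe sets, quantile normalization and the loess curve, which made both alanine genes lower. Averaged probe sets made cysteine, serine and isoleucine opposite, and the loess curve threonine.

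**Figure D4:**
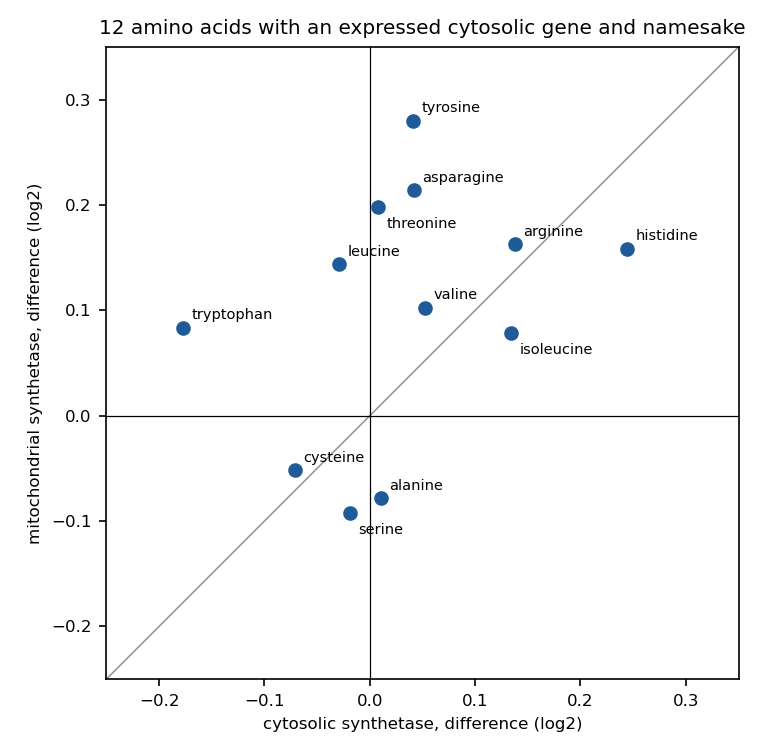
Difference of the mitochondrial synthetase against that of the cytosolic one (KO-labelled minus WT-labelled, log2) for the 12 amino acids with an expressed cytosolic gene and an expressed namesake with the suffix 2, which leaves out phenylalanine, glutamate and proline; the grey line marks equal differences. Tryptophan and tyrosine lie furthest above the line, with gaps of 0.26 and 0.24, and histidine lies below it, at 0.24 and 0.16.

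By fold of the catalytic domain, synthetases fall into class I and class II. The 17 expressed genes of class I had 12 higher and a median of 0.08, and the 16 of class II had 12 higher and a median of 0.06. Within the cytosol 5 of 9 class I genes were higher (median 0.01) and 8 of 9 class II genes (median 0.07), where 56.9% of all expressed genes were. With quantile normalization these counts were 4 of 9 and 7 of 9 (49.2% of all expressed genes), and with the loess curve 4 of 9 and 6 of 9 (47.0%). Eprs carries a domain of each class and was left out of both.

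The cytosolic genes reported as ATF4-responsive, a list remembered from the literature, were spread around 0. Of these 13 genes 8 were higher (61.5%) and 5 lower, with a median of 0.01, where 56.9% of all expressed genes were higher. The other 6 measured cytosolic genes, Farsa, Farsb, Hars, Kars, Qars and Rars, were all higher, with a median of 0.13, although Qars was at 0.01 and turned below 0 under quantile normalization, the loess curve and the mean of probe sets, as did Farsa with plain _at probe sets. The 5 genes whose promoters hold the C/EBP-ATF element, printed above, differed by 0.01 (Aars), 0.07 (Gars), 0.13 (Iars), 0.01 (Tars) and 0.04 (Yars). Farsb and Ears2, which hold the E-box alone, differed by 0.22 and 0.13. Whether these groups differ could not be tested with 1 array each.

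Atf4 itself read 14.21 on the KO-labelled array and 14.23 on the WT-labelled array, a difference of -0.02, and its known target Asns, the asparagine synthetase gene, 13.07 on both arrays (-0.004); both were chosen after their values were seen. The list of ATF4 and amino acid response genes had 22 of 38 expressed members higher (57.9%) and 16 lower, with a median of 0.03. This was near all expressed genes, of which 56.9% were higher, with a median of 0.03. With the loess curve 17 of 38 were higher (median -0.005), where 47.0% of all expressed genes were. With the mean of probe sets 17 of 35 were higher (median -0.006), where 59.1% of all expressed genes were. Its highest members were Vldlr (0.43), a lipoprotein receptor gene, and Stc2 (0.31). Its lowest were Cebpb (-0.34), a partner of ATF4, and Ppp1r15a (-0.249, just short of 0.25 in size), the phosphatase subunit GADD34. Thus 2 of 38 were higher by 0.25 or more and 1 was lower by as much, beside 7.60% and 6.40% of all expressed genes.

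Other genes of tRNA charging were also mostly higher. All 12 expressed members of the list of charging partners were higher on the KO-labelled array, with a median of 0.14, though none by 0.25, and 11 of 12 were higher under quantile normalization or the loess curve. The 3 scaffold proteins of the multisynthetase complex were among them, Aimp1 (11.66 and 11.53, 0.13), Aimp2 (11.18 and 11.10, 0.08) and Eef1e1 (12.57 and 12.50, 0.08). Gatb (0.20), Gatc (0.22) and Qrsl1 (0.21), the subunits of the enzyme that turns the glutamate loaded by Ears2 into glutamine, lay close together. These 3 scaffold genes, Gatb and Qrsl1 were chosen after their values were seen.

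The formyltransferase gene Mtfmt, which modifies the initiator methionine tRNA of mitochondria, had levels of 8.67 and 8.46 (0.22). The lowest members were the editing enzyme genes Aarsd1 (0.03) and Dtd2 (0.05). Sepsecs, which makes selenocysteine on its tRNA, stood at 9.02 and 8.83 (0.19; chosen after its value was seen). Tarsl2, a threonine enzyme outside the list of 36, was not expressed.

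Elongation factors, which bring the charged tRNA to the ribosome, were higher in 9 of 11 cases, with a median of 0.08. The highest were Eef2k (0.33), the kinase that restrains elongation factor 2, and the mitochondrial factor gene Guf1 (0.31), and the lowest were Eef1a1 (-0.02) and Gfm1 (-0.01). Genes of tRNA transcription and end processing were higher in 27 of 36 cases, with a median of 0.07. Polr3g (0.58), a subunit of RNA polymerase III, and Pop1 (0.56), a subunit of ribonuclease P, led this list, and the splicing endonuclease gene Tsen15 (-0.64) and Maf1 (-0.15), a repressor of RNA polymerase III, were lowest.

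Genes of tRNA modification were higher in 35 of 45 cases, with a median of 0.14. Qtrt2 (0.44), which makes queuosine, and Tyw3 (0.31), which makes wybutosine, were the highest, and the methyltransferase genes Nsun3 (-0.26) and Trdmt1 (-0.23) the lowest. In this list 6 of 45 genes were higher by 0.25 or more and 1 was lower by as much, beside 7.60% and 6.40% of all expressed genes. Each of these lists is described by its counts beside the 56.9% of all expressed genes that were higher.

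**Figure D5:**
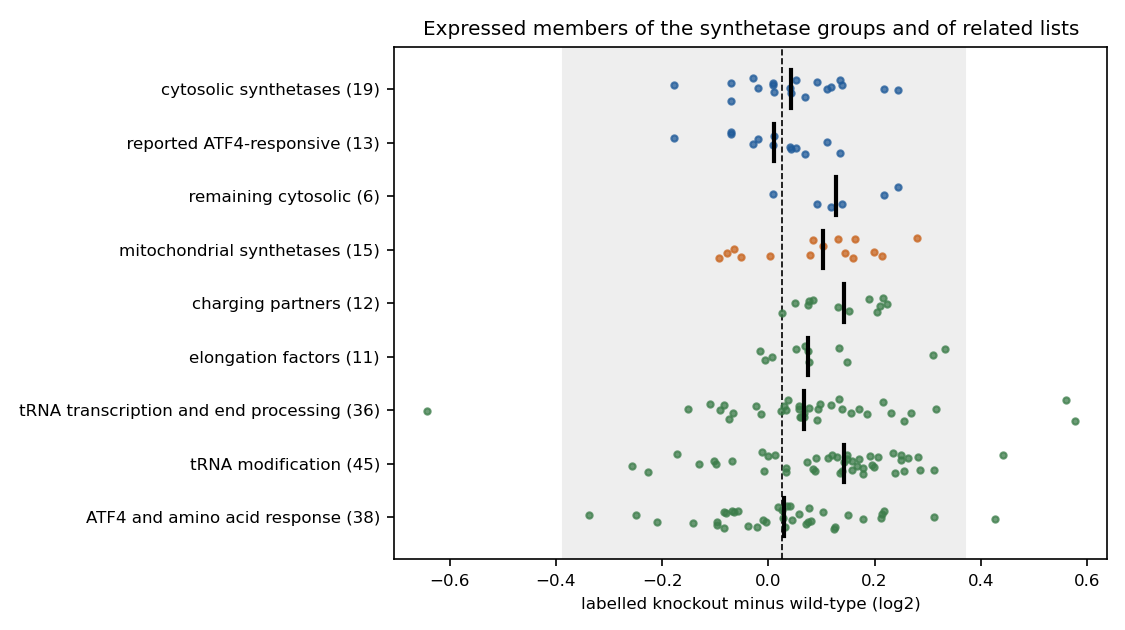
Difference between the arrays (KO-labelled minus WT-labelled, log2) of the expressed members of the synthetase groups and of related lists, with the number of genes in brackets and a black bar at each median. The dashed line is the median of all expressed genes (0.03) and the grey band their central 95%; medians run from 0.01 for the reported ATF4-responsive synthetases to 0.14 for charging partners and tRNA modification.

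Gene order places some synthetases side by side, as RefSeq's annotation of GRCm38.p6 lists protein-coding genes. Hars and Hars2 are direct neighbours and were higher by 0.24 and 0.16, and the genes flanking the pair, Dnd1 (0.14) and Zmat2 (0.11), were higher too. Iars2 and Eprs are separated by Bpnt1 alone, and the 3 genes differed by 0.08, 0.11 and 0.16 in the order Iars2, Eprs, Bpnt1. Mars lies beside Ddit3, the gene of the stress factor CHOP, and these neighbours went opposite ways (-0.07 and 0.18). The neighbours named here were chosen after their values were seen.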

How the data were processed

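RNA of 2 arrays, 1 per genotype label, was read from the series' value table. The authors deposited log2 intensities for 45101 probe sets; the unit was read from the values (3.09 to 15.4), and no source used here states how probes were summarised or normalized. Once sorted, the values of both arrays agreed within 0.063, so a difference in total RNA per cell would be hidden. Labelled cRNA was made with the Affymetrix IVT Express kit, per the labels' protocols.

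The platform annotation named a single gene for 34945 probe sets. Expression needed a mean of at least 6.71, which 10717 genes met. With 1 array per group no test was run and none could be left out in turn; precision is limited by this number. Members and lists were chosen with earlier results of these data known. Named are every synthetase, the 2 highest and 2 lowest expressed genes of each related list, Mir155hg, and probe sets of opposite sign; others are marked. The comparison with genes of similar level, the probe set counts and the gene order were chosen after the values were seen. The code was tested on simulated data. Software was Python 3.11.15 with NumPy 2.4.6, pandas 2.3.3, matplotlib 3.10.9 and statsmodels 0.14.6.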

Additional observations from a re-analysis of the deposited data

How the results depend on the processing

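Settings tried in place of the main ones were averaging all probe sets of a gene, plain _at probe sets only, quantile normalization, a loess curve subtracted (span 0.3), no filter, and a filter at the 75th percentile of levels (8.84). The median of the cytosolic synthetases stayed between 0.02 and 0.05 and that of the mitochondrial ones between 0.04 and 0.16. The number higher by 0.25 or more, 1 in the comparison above, was 0 under each alternative except no filter, where Mars2 made it 2. Plain sets and the 75th percentile filter left Yars2 out, as it has no plain _at probe set and a mean of 8.46. It stood just under 0.25 with averaged probe sets (0.248), quantile normalization (0.226) and the loess curve (0.220). With the filter at the 75th percentile only 6 mitochondrial genes were left, and 6 of 6 were higher, where 62.7% of all 6306 genes kept were. The 4 lower mitochondrial genes all had mean levels under this filter, and Fars2, 1 of the 6, was at 0.003. The number of cytosolic genes higher ranged from 11 with the loess curve to 14, and none of the 34 was lower by 0.25 under any of the 6. Signs turned for 5 of 34 genes with the mean of probe sets, 1 of 29 with plain sets (Farsa, -0.04), 3 of 34 with quantile normalization and 4 of 34 with the loess curve, all of them under 0.10 in size in the main comparison. The median of the reported ATF4-responsive synthetases turned to -0.01 with the loess curve, and that of cytosolic class I genes to -0.03 there, -0.02 with averaged probe sets and -0.02 with quantile normalization. The median of the ATF4 and amino acid response list turned to -0.005 with the loess curve and -0.006 with averaged probe sets. Over all expressed genes the median was itself -0.010 with the loess curve and -0.002 with quantile normalization, and 0.032 with averaged probe sets. No paired analysis was possible because each group has 1 array.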

Other observations

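A probe set that names both Aars and its neighbour Exosc6 was not used above. It read 10.49 on the KO-labelled array and 10.28 on the WT-labelled array (0.21), while the 2 probe sets naming Aars alone differed by 0.01 and -0.04.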
